A study of Homo sapiens with 18 samples.

Results

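The comparison described here is between HCC1937-EV cells harvested after 24 h and after 12 h with the PARPi olaparib, with 3 libraries at each time. These 6 libraries were chosen by the cell line and time in their sample titles, out of 18 in the series. HCC1937 is a breast cancer cell line that, by the paper's description, carries mutated BRCA1, and HCC1937-EV is HCC1937 with an empty vector. Both groups received 10 µmol/L olaparib, so the comparison holds no untreated library and shows what differed between 12 h and 24 h of the same treatment. The other libraries are HCC1937-EV at 0 h and HCC1937-OE-BRCA1, labelled as overexpressing wild-type BRCA1, at 0 h, 12 h and 24 h, each with 3 libraries. The labels give the genotype of HCC1937-EV as WT and list olaparib also for the 0 h libraries, whereas the paper describes a BRCA1-mutated cell line and untreated cells at 0 h. The sources used here do not state whether the libraries came from separate cultures, so the p-values measure the spread between these libraries, which may be technical.

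PARP1 binds breaks in DNA and attaches chains of ADP-ribose to itself and to other proteins, and olaparib blocks this step and holds PARP1 on DNA. Cells without functional BRCA1 repair double-strand breaks poorly by homologous recombination and are therefore sensitive to PARPi. Damaged DNA and misprocessed RNA in the cytoplasm can be read as foreign by sensors that act through IRF3, and the genes that follow, such as the IFIT and OAS families, are shared with the response to interferon. Starved or stressed cells use another route, in which translation factor eIF2 is phosphorylated and the transcription factor ATF4 switches on genes of amino acid supply.

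The total count was 15839766, 15687549 and 15081973 in the 12 h libraries and 17571922, 17273396 and 16675171 in the 24 h libraries. Levels are given in CPM, read counts scaled to a common library size after TMM normalization. BRCA1, the gene that HCC1937-OE-BRCA1 overexpresses by its label, was at 118 CPM, 117 CPM and 94.9 CPM at 12 h and at 90.9 CPM, 93.1 CPM and 99.5 CPM at 24 h in HCC1937-EV. HCC1937-OE-BRCA1 had 114 CPM, 130 CPM and 126 CPM of it at 12 h and 155 CPM, 159 CPM and 169 CPM at 24 h. BRCA1 overlapped between the times in HCC1937-EV, with a log2 fold change of -0.22 (SE 0.11, adjusted p = 0.566). The groups of the cell lines overlapped at 12 h as well and were apart at 24 h.

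Keratins of luminal type were abundant in HCC1937-EV, with a mean over the 6 libraries of 1933 CPM for KRT8 and 930 CPM for KRT18, and so were ERBB2 at 159 CPM and EGFR at 165 CPM. KRT7 was at 504 CPM, LAMB3 at 92.5 CPM and FOXA1 at 18.1 CPM. Other epithelial and basal markers of the list had few or no counts. EPCAM, the epithelial adhesion molecule, had 0 counts in the 6 libraries, CDH1, which encodes E-cadherin, had 83, the basal keratins KRT5 and KRT14 had 4 and 1, and TP63 had 2. In HCC1937-OE-BRCA1 at 12 h the means were 265 CPM for EPCAM, 471 CPM for CDH1 and 1644 CPM for KRT5, so the cell lines differed in many genes besides BRCA1, and a difference between them cannot be told apart from these other differences. Markers of leukocytes summed to 123 to 191 counts in a library, with PTPRC at 0 and CSF1R the most abundant at 7.67 CPM, and no member passed the test. Markers of fibroblasts and endothelium summed to 1609 to 2007 counts at 12 h and to 2358 to 2650 counts at 24 h. Their most abundant gene was COL1A1 at 121 CPM, followed by PDGFRB at 9.29 CPM and PECAM1 at 2.02 CPM, while COL1A2, DCN and LUM had 2, 1 and 0 counts in the 6 libraries. In bulk libraries such as these, fewer cells of a type and less RNA per cell cannot be told apart.

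Of 18335 genes tested, 25 were higher at 24 h (0.136%) and 8 were lower (0.0436%), which is 0.18% in either direction. A gene was called where edgeR's quasi-likelihood test gave an adjusted p (Benjamini-Hochberg) below 0.05, whatever its fold change. The count of 33 depends on single libraries and on the model: it was 115 without 12 h replicate 3 and 14 without 24 h replicate 2 or 3, 156 by DESeq2's Wald test and 276 with offsets for GC content and length. A fit of the 6 compared libraries alone gave 6 calls, and a fit of the 9 EV libraries alone gave 14. All 33 are annotated as protein-coding, and in each of them the libraries of the times did not overlap. In all, 1044 genes (5.69%) had the 24 h libraries above the 12 h libraries and 885 genes (4.83%) had them below. At an unadjusted p under 0.05, 893 genes were higher (4.87%) and 793 were lower (4.33%). The sizes of the called changes lay between 0.42 and 1.49 on the log2 scale, and the median over all genes was 0.

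**Figure D1:**
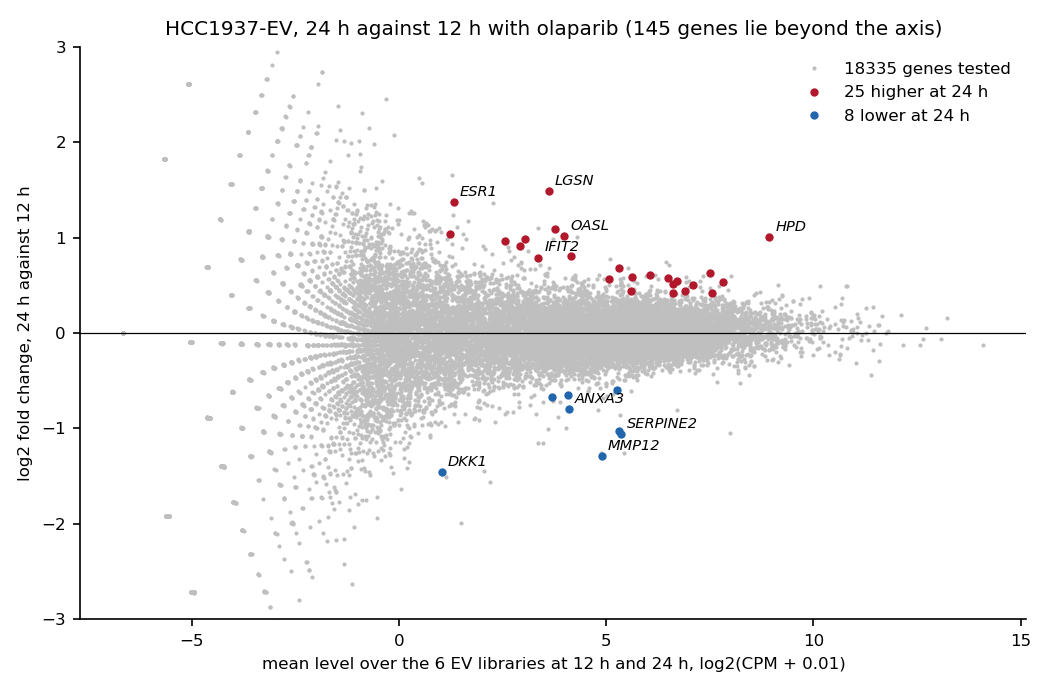
Log2 fold change in HCC1937-EV at 24 h against 12 h (vertical axis) by the mean level over the 6 libraries as log2(CPM + 0.01) (horizontal axis), one point per gene, with the 25 called rises in red and the 8 called falls in blue. The called genes sit at the edge of a cloud centred on 0, and 145 genes of low level lie beyond the vertical axis.

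Several antiviral genes were among the rises. OASL, an oligoadenylate synthetase-like protein of the antiviral response (chr12:121019111-121039242 on GRCh38), was at 10.6 CPM, 9.13 CPM and 11.9 CPM at 12 h and at 21.5 CPM, 21.6 CPM and 20.7 CPM at 24 h. Its 24 h libraries lay close together and well above those of 12 h, and OASL rose by a log2 fold change of 1.02 (SE 0.11, adjusted p = 0.000138). IFIT2, which binds RNA and is induced by interferon and IRF3 (chr10:89283694-89309276), was at 8.84 CPM, 7.31 CPM and 6.38 CPM at 12 h and at 13.2 CPM, 13.6 CPM and 12.3 CPM at 24 h. It rose by 0.79 (SE 0.13, adjusted p = 0.00758), with no overlap, but was not called without 12 h replicate 2 or without 24 h replicate 2 (highest adjusted p 0.0627 with a library left out). IFI44, another interferon-induced gene (chr1:78649796-78664078), was at only 1.60 CPM, 1.63 CPM and 1.36 CPM at 12 h and at 3.07 CPM, 3.36 CPM and 3.06 CPM at 24 h. Its log2 fold change was 1.04 (SE 0.20, adjusted p = 0.0305), and it was not called when any of the 6 libraries was left out (highest adjusted p 0.158).

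The neighbours of IFIT2 on chromosome 10 did not pass the test. IFIT1, which recognises RNA without the cell's own cap, had a mean of 8.07 ± 0.738 CPM (SD, n = 3) at 12 h and of 13.3 ± 2.40 CPM (SD, n = 3) at 24 h, with a log2 fold change of 0.71 (SE 0.15) and an adjusted p of 0.0624 from edgeR. IFIT3, which acts in a complex with IFIT1, had a log2 fold change of 0.57 (SE 0.15, adjusted p = 0.157). In both genes the times did not overlap. OAS3 and OAS1, which make the second messenger that activates RNase L, had log2 fold changes of -0.15 (SE 0.12) and -0.08 (SE 0.09), and their libraries overlapped between the times. Of the 12 genes in the study's antiviral qPCR primers, 2 were called higher and none lower, and 4 had the 24 h libraries above the 12 h libraries and none below, beside 5.69% and 4.83% of all genes. The median log2 fold change over the 12 was 0.28, with 6 positive and 3 negative, and lay between 0.17 without 24 h replicate 3 and 0.36 without 12 h replicate 1. Over the 6 members with a mean of at least 1 CPM it was 0.64, beside 0 over the 13496 genes tested at that level. IFNB1, IFNL1 and IFNL3, the interferon genes of the list, had no count in the 6 libraries.

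Of 71 interferon-stimulated genes outside the primer list, IFI44 alone was called, and the median log2 fold change was 0. In all libraries of 24 h, 7 of them lay above (9.86%) and 5 below (7.04%), near the 5.69% and 4.83% of all genes. Of 3 members chosen after their values were seen, IFITM1, a membrane protein that restricts virus entry, had 0.57 (SE 0.14, adjusted p = 0.131), while IFI16, a sensor of DNA, had -0.49 (SE 0.16, adjusted p = 0.308) and PLSCR1 had -0.38 (SE 0.10, adjusted p = 0.195). The abundant members ADAR, which edits double-stranded RNA, and BST2 had 0.08 (SE 0.09) and 0.25 (SE 0.13). Of 22 genes of nucleic acid sensing and interferon signalling, none was called, and 4 lay above (18.2%, beside 5.69% of all genes) and 0 below in all libraries of 24 h. Their median log2 fold change was 0.06 (0.01 to 0.12 with each library left out in turn). IRF3 was at 74.8 CPM, 90.8 CPM and 127 CPM at 12 h and at 110 CPM, 112 CPM and 99.9 CPM at 24 h, with the 24 h libraries inside the range of the 12 h libraries.

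Stretches before the start of 3 of these genes are shown because the interferon-stimulated response element (ISRE), bound by the IRF factors, is their common feature. The sequences are from RefSeq on GRCh38.p14, on the strand of the gene and ending before the start, and capitals mark matches to GAAANNGAA on either strand, which appear here as the reverse complement. OASL and IFIT2 are named only.
IFIT1 (chr10:89392483-89392554, plus strand): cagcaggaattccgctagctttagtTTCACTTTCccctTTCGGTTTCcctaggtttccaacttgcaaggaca
IFIT3 (chr10:89332405-89332512, plus strand): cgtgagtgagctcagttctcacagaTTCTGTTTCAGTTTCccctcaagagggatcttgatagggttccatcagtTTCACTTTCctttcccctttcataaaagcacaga
IFI44 (chr1:78649747-78649788, plus strand): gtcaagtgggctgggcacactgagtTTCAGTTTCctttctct

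The first letters of the matches lay 102 and 115 bases before the start in IFIT1, from 50 to 99 bases before it in IFIT3, where 2 of the 3 matches overlap, and 17 bases before it in IFI44. In windows of 300 bases, 250 before and 50 after the start, the letters were found in 6 of the 8 primer genes with an entry and in 39 of 56 other interferon-stimulated genes, beside 9.86% of all genes in the promoter table (8.11% of windows). Of the called genes, 23 of 33 had an entry and 2 held the letters, IFI44 and ANXA3. A match describes the sequence and does not show binding.

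**Figure D2:**
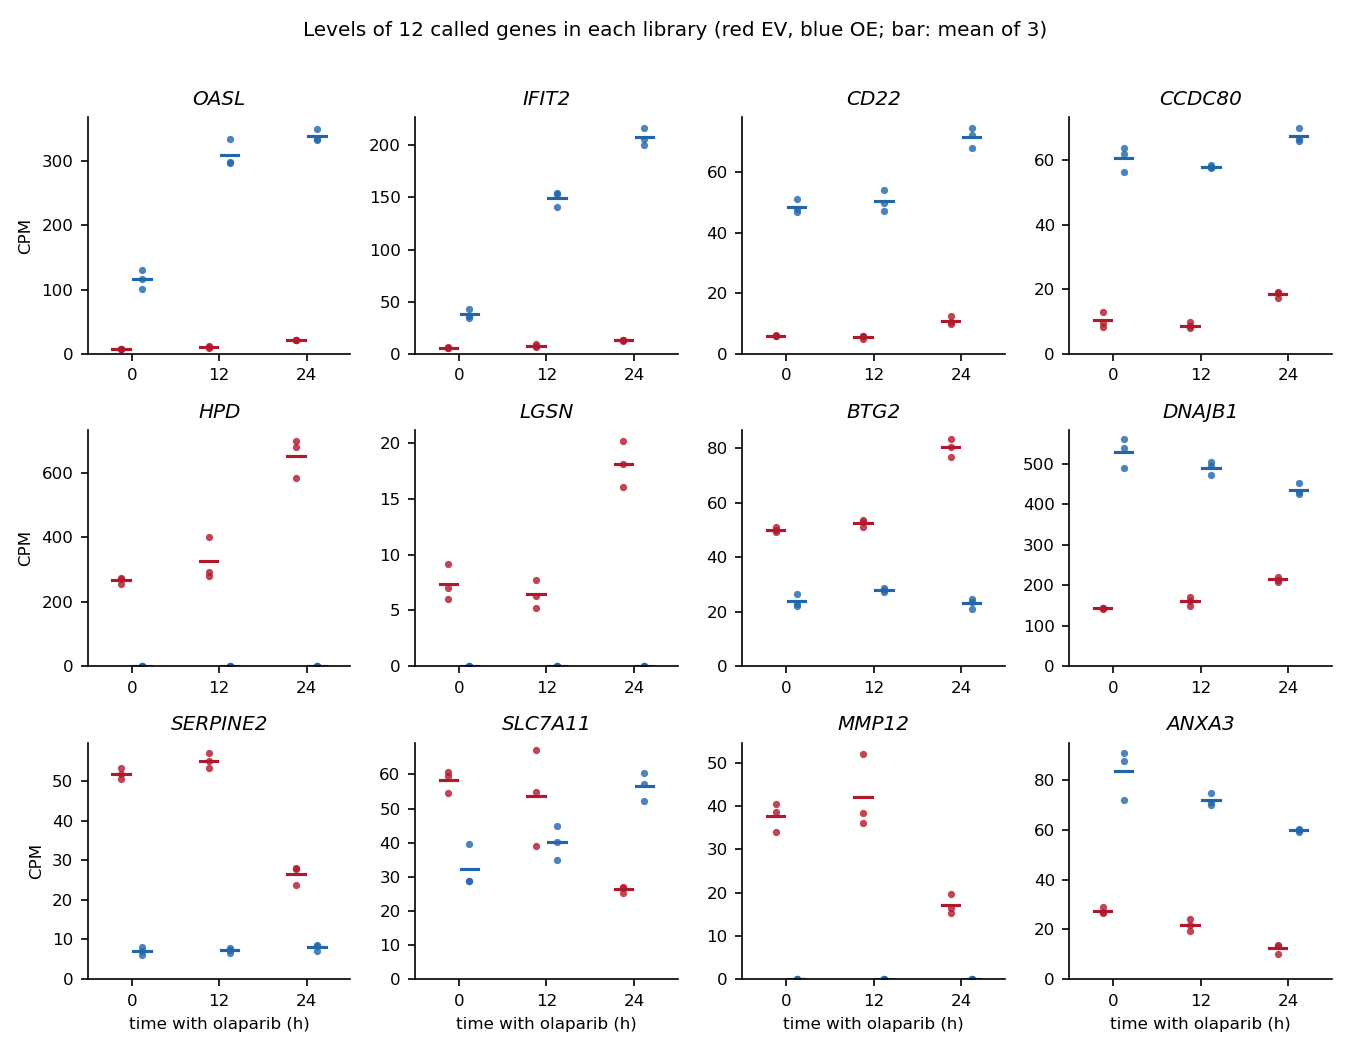
Levels in CPM (vertical axis, starting at 0) of 12 called genes by time with olaparib in h (horizontal axis), one point per library and a bar at the mean of 3, with HCC1937-EV in red and HCC1937-OE-BRCA1 in blue. In HCC1937-EV the 24 h points are apart from the 12 h points in each panel, and LGSN, HPD and MMP12 lie at or near 0 in HCC1937-OE-BRCA1.

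The largest log2 rise was that of LGSN, which encodes lengsin, a relative of glutamine synthetase known from the lens (chr6:63275951-63319977). It was at 6.34 CPM, 7.75 CPM and 5.23 CPM at 12 h and at 18.1 CPM, 16.1 CPM and 20.1 CPM at 24 h. Each 24 h library held more than any 12 h library by a wide margin, and the log2 fold change was 1.49 (SE 0.20, adjusted p = 0.00174). HPD, a dioxygenase of tyrosine breakdown (chr12:121839527-121863596), was the most abundant called gene. Its level was 294 CPM, 281 CPM and 402 CPM at 12 h and 698 CPM, 679 CPM and 584 CPM at 24 h, and it rose by 1.01 (SE 0.11, adjusted p = 0.000138). The third 12 h library stood above the other two and still below the lowest 24 h library. CCDC80, a secreted protein of the extracellular matrix (chr3:112596794-112649530), was at 7.88 CPM, 9.69 CPM and 8.49 CPM at 12 h and at 19.2 CPM, 17.4 CPM and 18.9 CPM at 24 h. It rose by 1.09 (SE 0.13, adjusted p = 0.00037), with a narrow spread at both times.

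CD22, a lectin receptor best known from B cells (chr19:35319261-35347355), was at 5.70 CPM, 4.94 CPM and 5.91 CPM at 12 h and at 10.4 CPM, 12.4 CPM and 9.88 CPM at 24 h, and rose by 0.99 (SE 0.12, adjusted p = 0.00037). The leukocyte marker PTPRC was at 0 in all 6 libraries. ALPP, the placental alkaline phosphatase (chr2:232378534-232382889), was at 30.3 CPM, 29.3 CPM and 32.4 CPM at 12 h and at 52.0 CPM, 50.0 CPM and 45.0 CPM at 24 h. It rose by 0.68 (SE 0.09, adjusted p = 0.000929), and since ALPP has near-identical relatives, its reads may be shared with them. ESR1, which encodes oestrogen receptor alpha (chr6:151656691-152129619), was at 1.28 CPM, 1.44 CPM and 1.43 CPM at 12 h and at 2.48 CPM, 4.01 CPM and 4.31 CPM at 24 h. It rose by 1.38 (SE 0.24, adjusted p = 0.0106) at this low level, and was not called without 12 h replicate 1 or 2 or without 24 h replicate 2 or 3 (highest adjusted p 0.0965).

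ESPN, which bundles actin, rose by 0.97 (SE 0.18, adjusted p = 0.0305), and USH1C, a scaffold protein that serves with it in sensory hair cells and microvilli, rose by 0.81 (SE 0.14, adjusted p = 0.0339). LAMB2, a laminin chain, rose from 143 ± 28.6 CPM to 222 ± 18.1 CPM (SD, n = 3), COL5A1, a fibrillar collagen, from 184 ± 20.1 CPM to 266 ± 18.1 CPM (SD, n = 3), and BCAM, a receptor for laminin, from 80.5 ± 9.92 CPM to 115 ± 3.72 CPM (SD, n = 3). Summed markers of fibroblasts and endothelium, mostly counts of COL1A1, were higher at 24 h as well, as given above. The part of such cells in these rises was not tested. Other rises were HSPA2, a chaperone of the HSP70 family, C1QTNF6, a secreted protein, SCNN1A, a subunit of the epithelial sodium channel, CPA4, a carboxypeptidase, HEXIM1, an inhibitor of transcription elongation factor P-TEFb, PIK3R3, a regulatory subunit of phosphoinositide kinase, FAM83D, a protein of the mitotic spindle, and TRAPPC9, a subunit of a vesicle tethering complex. Their log2 fold changes lay between 0.42 for FAM83D and 0.91 for HSPA2. LAMB2, C1QTNF6, SCNN1A, CPA4, HEXIM1, PIK3R3, FAM83D and TRAPPC9 lie outside the rule for named genes and are given after their values were seen.

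SERPINE2, a serpin that inhibits thrombin and plasminogen activators (chr2:223975112-224039319), was at 55.1 CPM, 53.4 CPM and 57.1 CPM at 12 h and at 27.8 CPM, 28.0 CPM and 23.7 CPM at 24 h. All 24 h libraries were far below the 12 h libraries, and SERPINE2 fell by 1.06 on the log2 scale (SE 0.11, adjusted p = 0.000138). MMP12, a secreted metalloprotease that cleaves elastin (chr11:102862736-102875034), was at 52.1 CPM, 38.4 CPM and 36.1 CPM at 12 h and at 19.7 CPM, 16.6 CPM and 15.3 CPM at 24 h. It fell by 1.29 (SE 0.16, adjusted p = 0.00112), with the first 12 h library the highest. DKK1, a secreted antagonist of WNT signalling (chr10:52314296-52318042) that was named after its values were seen, was at 2.56 CPM, 3.38 CPM and 3.06 CPM at 12 h and at 0.708 CPM, 1.36 CPM and 1.2 CPM at 24 h. It fell by 1.46 (SE 0.24, adjusted p = 0.0068), and was not called without 12 h replicate 2 or without 24 h replicate 1 (highest adjusted p 0.0696). The other falls were ANXA3, an annexin (-0.80, SE 0.13), CCN3, a matricellular protein (-0.67, SE 0.13), PLAUR, the urokinase receptor (-0.65, SE 0.13), ADGRG1, an adhesion receptor (-0.60, SE 0.12), and SLC7A11.

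SLC7A11, the cystine and glutamate exchanger that feeds glutathione synthesis and a target of ATF4 and NRF2 (chr4:138164097-138242349), was at 54.8 CPM, 67.1 CPM and 39.0 CPM at 12 h and at 27.0 CPM, 25.2 CPM and 26.7 CPM at 24 h. Its 12 h libraries were spread and the 24 h libraries close together below them, and SLC7A11 fell by 1.03 (SE 0.16, adjusted p = 0.0045). Among 32 genes of ATF4 and the integrated stress response, SLC7A11 was the only one called. The median log2 fold change over the 32 was -0.27, 28 were negative, and 16 had all 24 h libraries below all 12 h libraries, beside 4.83% of all genes. At an unadjusted p under 0.05, 18 were lower and 1 was higher, beside 4.33% and 4.87% of all genes. The median deviation of these genes from their 12 h mean was -0.02, -0.02 and 0.09 in the 12 h libraries and -0.21, -0.28 and -0.30 in the 24 h libraries, so the times did not overlap. With single libraries left out the median lay between -0.32 and -0.21.

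The following members of that list were chosen after their values were seen, for their size. CHAC1, which degrades glutathione, went from a mean of 35.5 CPM to 20.2 CPM (log2 fold change -0.81, SE 0.18, adjusted p = 0.0779), and DDIT3, the transcription factor CHOP, from 18.7 CPM to 10.1 CPM (-0.88, SE 0.20, adjusted p = 0.0815). GPT2, an alanine transaminase, had -0.43 (SE 0.09, adjusted p = 0.0531), and MTHFD2, of mitochondrial folate metabolism, had -0.38 (SE 0.09, adjusted p = 0.126). ATF5 went the other way, with 0.50 (SE 0.12, adjusted p = 0.119). The most abundant members, the amino acid transporter chains SLC7A5 and SLC3A2, had 0.05 (SE 0.09) and -0.06 (SE 0.15). The 31 NRF2 targets and glutathione genes had a median of 0.07, which was -0.02 without 24 h replicate 1 and 0.20 without 12 h replicate 3, and SLC7A11 was again the only one called.

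The promoters of 2 members are shown because they hold a match to TGATGNAA, the letters of the ATF4 element, in capitals, again from RefSeq on GRCh38.p14 on the strand of the gene. The match in CHAC1 is on the opposite strand. SLC7A11 is named only.
ASNS (chr7:97872444-97872501, minus strand): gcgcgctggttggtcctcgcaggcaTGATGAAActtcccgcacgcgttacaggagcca
CHAC1 (chr15:40953237-40953294, plus strand): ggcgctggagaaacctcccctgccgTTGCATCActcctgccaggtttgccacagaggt

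The match began 68 bases before the start in ASNS, which makes asparagine, and 209 bases before it in CHAC1. The letters were found in 6 of the 26 members of the list with an entry (23.1%), beside 4.46% of all genes in the promoter table (3.62% of windows), and in 1 of 23 called genes, USH1C. ASNS had a mean of 8.80 CPM at 12 h and 6.05 CPM at 24 h (log2 fold change -0.54, SE 0.19, adjusted p = 0.401).

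**Figure D3:**
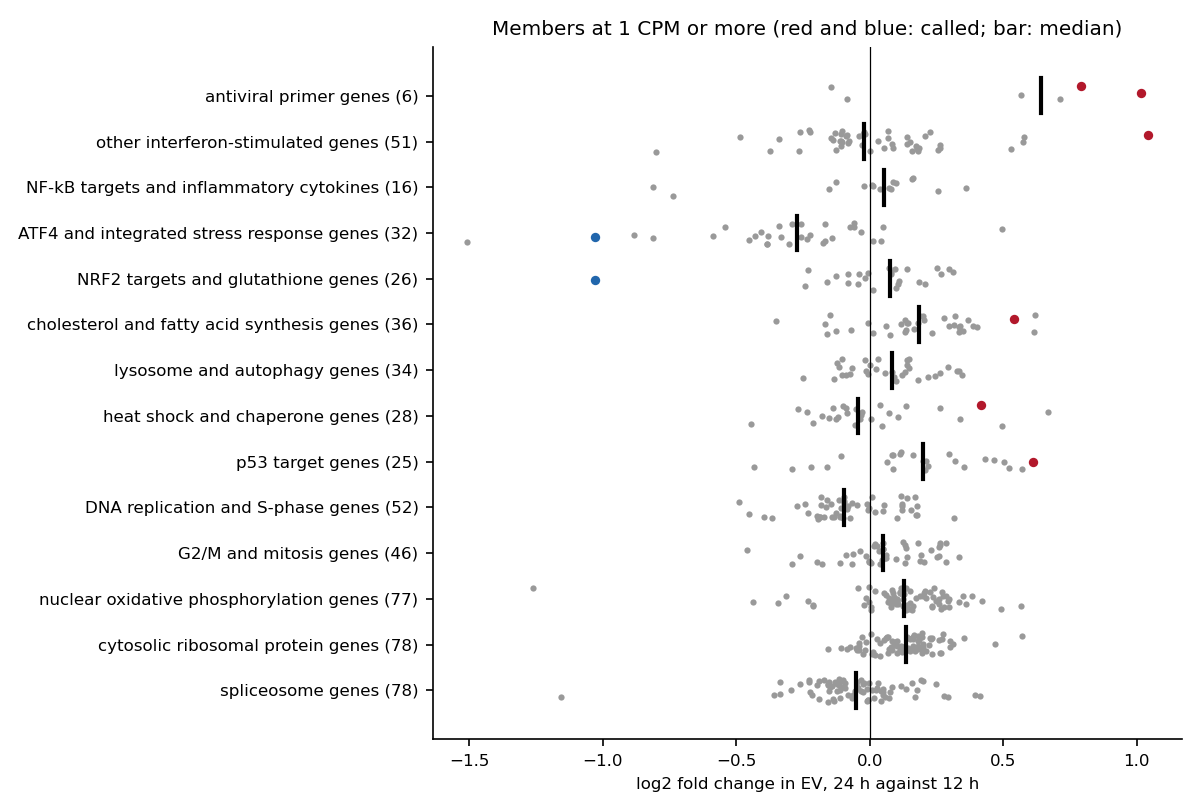
Log2 fold change in HCC1937-EV at 24 h against 12 h (horizontal axis) of the members of 14 gene lists with a mean of at least 1 CPM (number in brackets), one point per gene, with called genes in red and blue and a bar at the median. The ATF4 list has its median at -0.27 and the 6 antiviral primer genes at this level at 0.64, while the other medians lie between -0.10 and 0.20.

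Of 37 genes of cholesterol and fatty acid synthesis, 29 had a positive log2 fold change. The median log2 fold change over these genes was 0.18, and 8 members lay above and 1 below in all libraries of 24 h, beside 5.69% and 4.83% of all genes. With single libraries left out the median lay between 0.15 and 0.27. By library, the median deviation from the 12 h mean was -0.10, 0.01 and 0.08 at 12 h and 0.23, 0.23 and 0.17 at 24 h. FASN, the fatty acid synthase, had 0.37 (SE 0.14, adjusted p = 0.448), with 1110 CPM in the first 12 h library against 1577 CPM and 1669 CPM in the others, and SCD, a desaturase, had -0.01 (SE 0.10).

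Among 25 p53 targets, 20 had a positive log2 fold change, the median was 0.20, and 7 lay above and 1 below in all libraries of 24 h, beside 5.69% and 4.83% of all genes. With single libraries left out the median lay between 0.14 and 0.23. BTG2, an antiproliferative gene (chr1:203305491-203309602), was called. It was at 53.7 CPM, 52.8 CPM and 50.9 CPM at 12 h and at 83.4 CPM, 80.4 CPM and 76.9 CPM at 24 h, and rose by 0.61 (SE 0.09, adjusted p = 0.0045) with little spread at either time. Of 2 members chosen after their values were seen, CDKN1A, the p21 inhibitor of the cell cycle, had 0.47 (SE 0.12, adjusted p = 0.133), and PMAIP1, which promotes cell death, had -0.43 (SE 0.11, adjusted p = 0.133). The abundant members PLK2 and TNFRSF10B had 0.09 (SE 0.07) and 0.12 (SE 0.09).

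Of 52 genes of DNA replication and S phase none was called, 9 lay below (17.3%, beside 4.83% of all genes) and 0 above in all libraries of 24 h, and the median was -0.10, or -0.04 without 12 h replicate 1. The most abundant members had -0.17 (SE 0.08) for MCM4 and -0.10 (SE 0.13) for MCM7, subunits of the replicative helicase. Of 47 genes of G2/M and mitosis none was called, and 7 lay above (14.9%, beside 5.69% of all genes) and 0 below. The median was 0.05, but 0.15 without 12 h replicate 1 and -0.02 without 12 h replicate 3. With the offsets for GC content and length described below it was 0.12, or 0.15 without 12 h replicate 1 and 0.11 without 12 h replicate 3. CENPF and TOP2A, the most abundant, had -0.04 (SE 0.15) and 0.06 (SE 0.12). The 44 genes of homologous recombination and the Fanconi anaemia pathway had a median of -0.06 (-0.17 without 12 h replicate 3, -0.0060 with offsets and 0.03 with offsets and without 12 h replicate 3) and the 17 genes of the PARP family and PARG a median of -0.03 (-0.08 without 12 h replicate 3 and 0 without 12 h replicate 1), with no call in either without offsets. PARP1 itself was at 622 CPM, 584 CPM and 578 CPM at 12 h and at 584 CPM, 559 CPM and 539 CPM at 24 h, which overlapped at the edge (log2 fold change -0.09, SE 0.07).

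Heat shock and chaperone genes were mixed. DNAJB1, the partner of HSP70 that responds to heat shock factor, was at 148 CPM, 162 CPM and 172 CPM at 12 h and at 214 CPM, 221 CPM and 209 CPM at 24 h, and rose by 0.42 (SE 0.08, adjusted p = 0.0339). It was the only called member of 30, and lost the call in each fit without a library other than 12 h replicate 3 (highest adjusted p 0.229). HSPA2, a called chaperone of the HSP70 family outside the list of 30, had 0.91 (SE 0.18, adjusted p = 0.0339) and lost the call in the same 5 fits (highest adjusted p 0.195). HSPA8, the constitutive HSP70, chosen after its value was seen, had 0.50 (SE 0.10, adjusted p = 0.0531), while HSP90AA1, the inducible HSP90, had -0.44 (SE 0.11, adjusted p = 0.109) and HSP90AB1 had -0.12 (SE 0.08). The 22 genes of the unfolded protein response had a median of -0.04, between -0.07 without 12 h replicate 2 and -0.02 without 12 h replicate 1, with no call.

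None of the 78 spliceosome genes was called, and their median was -0.05, between -0.10 without 12 h replicate 2 and -0.03 without 12 h replicate 1. SF3B1, the subunit that recognises the branch point, was at 341 CPM, 313 CPM and 275 CPM at 12 h and at 283 CPM, 281 CPM and 303 CPM at 24 h, with the 24 h libraries inside the range of the 12 h libraries. The 78 nuclear genes of oxidative phosphorylation had a median of 0.13 and no call, between 0.06 without 12 h replicate 2 and 0.27 without 12 h replicate 3. Their median deviations were -0.07, -0.10 and 0.20 at 12 h and 0.31, 0.15 and -0.0040 at 24 h, so that the times overlapped. The 79 cytosolic ribosomal protein genes showed the same overlap, with a median of 0.13, between 0.06 and 0.26 without the same libraries. The 13 protein genes of mitochondrial DNA had a median of -0.12, which turned to 0.12 without 12 h replicate 1, with 11 positive and 2 negative. The share of counts from mitochondrial DNA was 7.87% in 12 h replicate 1 against 5.43% to 5.86% in the other 5 libraries.

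The libraries differed in a trend on GC content, the share of G and C bases in a gene's longest transcript. Over 11026 genes, how far a library lay from the average of the HCC1937-EV libraries had a Spearman correlation with GC content of -0.66, -0.27 and 0.71 in the 12 h libraries and 0.32, 0.68 and 0.49 in the 24 h libraries. It differed more within 12 h than between the times, and the spread between libraries was larger at 12 h, with a median SD of 0.206 on the log2 CPM scale against 0.121 at 24 h. The log2 fold change had a Spearman correlation of 0.54 with GC content across genes, which are not independent replicates, and GC content and length explained 25.1% of its variance. With a smooth trend of each library on GC content and length entered as an offset, 152 genes were higher (0.829%) and 124 were lower (0.676%), and all 33 genes were still called.

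**Figure D4:**
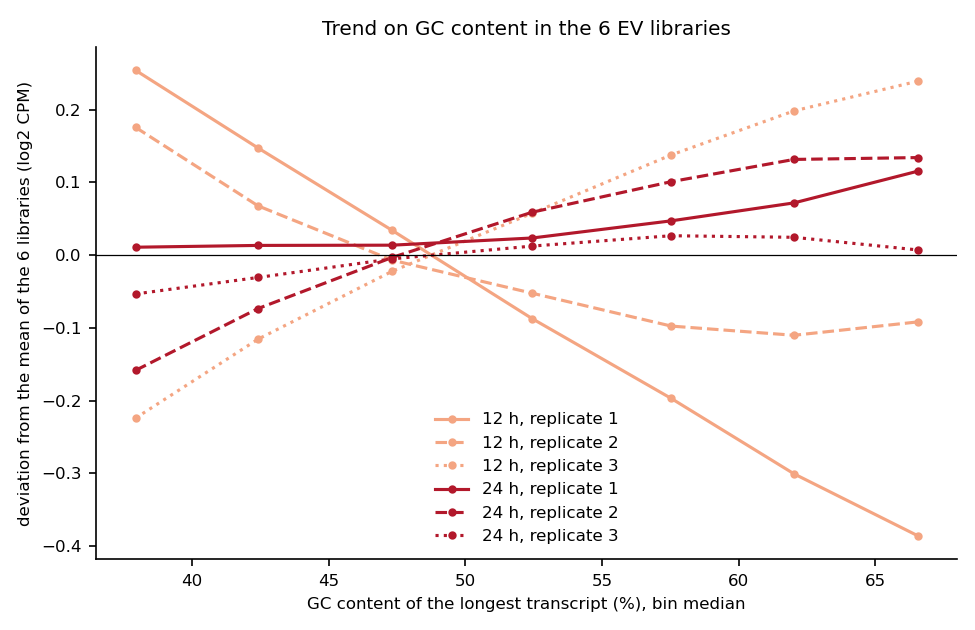
Median deviation of each of the 6 HCC1937-EV libraries from their mean on the log2 CPM scale (vertical axis) by GC content of the longest transcript in percent (horizontal axis, medians of 7 bins). The 12 h libraries run from 0.25 down to -0.39 in replicate 1 and from -0.22 up to 0.24 in replicate 3, and the 24 h libraries lie between them at both ends.

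In that fit the ATF4 list had 13 members lower and 1 higher, with a median of -0.30, CHAC1 and DDIT3 among the lower (adjusted p = 1.12e-05 and 0.00095) and ATF5 the higher one (adjusted p = 0.028). The cholesterol and fatty acid list had 6 members higher and none lower, but 3 higher without 12 h replicate 1. INSIG1 was among the 6 (adjusted p = 0.00725) and was chosen after its value was seen. IFIT1 and IFIT3 were called as well (adjusted p = 0.00109 and 0.00835), which makes 4 of the 12 antiviral primer genes higher and none lower. Among the 71 other interferon-stimulated genes 2 were higher and 1 was lower. The 25 p53 targets had 3 higher and none lower, but 1 higher without 12 h replicate 3, and 1 higher and 1 lower without 12 h replicate 1. Of the 52 genes of DNA replication 3 were lower (1 without 12 h replicate 1) and of the 47 of G2/M and mitosis 4 were higher. Of the 30 heat shock and chaperone genes 3 were higher, HSPA8 among them (adjusted p = 0.000747), and 1 was lower, HSP90AA1 (adjusted p = 0.00243). Of all genes 0.829% were higher and 0.676% lower in that fit. In the fit without offsets, 10 of the 33 genes were called whichever of the 6 libraries was left out, namely LGSN, CCDC80, OASL, HPD, CD22, ALPP, BTG2, MMP12, SERPINE2 and SLC7A11, and each of the others lost its call without at least one library.

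The values of the 33 genes against 0 h in HCC1937-EV share the 12 h and 24 h libraries with the comparison that chose the genes, so they are given only side by side and show no timing. None of the 33 was called at 12 h against 0 h, where 8 genes were called in all (0.0436%), and 32 were called at 24 h against 0 h, where 2520 genes were called (13.7%). Of these 32, 24 were higher and 8 lower. The counts against 0 h are from the fit without offsets. The Spearman correlation with GC content was -0.65, -0.26 and -0.50 in the 0 h libraries, and the part of this trend in the counts was not tested. OASL was at 7.33 CPM, 7.60 CPM and 6.66 CPM at 0 h, with a log2 fold change of 0.55 at 12 h and of 1.56 at 24 h. SERPINE2 had 0.09 and -0.97, BTG2 0.07 and 0.68, and HPD 0.29 and 1.29.

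The change from 12 h to 24 h was tested for a difference between HCC1937-EV and HCC1937-OE-BRCA1 as an interaction. Of 18335 genes, 175 were called (0.954%), and 17 of the 33 genes were among them, 13 with a higher and 4 with a lower change in HCC1937-EV. The 33 were chosen for their change in the same HCC1937-EV libraries, so the count of 17 is not independent of that choice. With offsets 23 of the 33 were called, the 17 and also ESR1, IFI44, IFIT2, PIK3R3, ADGRG1 and PLAUR. The trend on GC content also changed between the times in HCC1937-OE-BRCA1. Its Spearman correlation there was 0.63, 0.23 and 0.24 in the 12 h libraries and -0.36, -0.47 and -0.50 in the 24 h libraries. Beyond the fit with offsets, its part in the differences between the cell lines was not tested. The count of 175 depends on single libraries and ranged from 38 without OE 24 h replicate 3 to 2014 without EV 12 h replicate 3, with 41 to 99 for the other 10. In HCC1937-OE-BRCA1 alone, 303 genes were called at 24 h against 12 h (1.65%), among them 4 of the 33, CD22, IFIT2 and ALPP in the same direction and ESPN in the opposite one. LGSN, USH1C, HPD and MMP12 had means of about 1 CPM or less in HCC1937-OE-BRCA1, where a change can hardly be measured.

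SLC7A11 was at 35.0 CPM, 45.0 CPM and 40.2 CPM at 12 h and at 52.1 CPM, 57.3 CPM and 60.5 CPM at 24 h in the libraries labelled HCC1937-OE-BRCA1, the reverse of its order in HCC1937-EV. Its change differed between the cell lines by -1.53 (SE 0.22, adjusted p = 0.0033). ESPN was at 93.4 CPM, 88.5 CPM and 94.1 CPM at 12 h and at 61.2 CPM, 64.1 CPM and 57.9 CPM at 24 h in the libraries labelled HCC1937-OE-BRCA1, where it fell, and it rose in HCC1937-EV from 3.07 CPM, 4.94 CPM and 3.94 CPM to 6.85 CPM, 9.20 CPM and 7.37 CPM. The difference was 1.56 (SE 0.23, adjusted p = 0.0033). For BTG2 the difference was 0.89 (SE 0.14, adjusted p = 0.00372) and for BCAM 0.90 (SE 0.15, adjusted p = 0.00509), each with a level that was lower at 24 h in HCC1937-OE-BRCA1. SERPINE2 and CCN3 differed by -1.21 (SE 0.17, adjusted p = 0.0033) and -1.16 (SE 0.19, adjusted p = 0.00475).

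The antiviral genes started from other levels in HCC1937-OE-BRCA1. OASL was at 334 CPM, 299 CPM and 298 CPM at 12 h and at 335 CPM, 351 CPM and 333 CPM at 24 h there, many times its level in HCC1937-EV, and its change was larger in HCC1937-EV by 0.89 (SE 0.15, adjusted p = 0.007). For IFIT2, with 141 CPM, 153 CPM and 154 CPM at 12 h and 200 CPM, 216 CPM and 206 CPM at 24 h, the difference of 0.32 (SE 0.17, adjusted p = 0.322) did not pass the test. IFIT1 and IFI44 did not pass it either, with 0.52 (SE 0.20, adjusted p = 0.184) and 0.75 (SE 0.23, adjusted p = 0.11). With offsets for GC content and length all 3 passed it, with adjusted p-values of 0.0107 for IFIT2, 0.0088 for IFIT1 and 0.00374 for IFI44. The median log2 fold change in HCC1937-OE-BRCA1 was -0.13 over the ATF4 list, -0.16 over the cholesterol and fatty acid list and 0.19 over the DNA replication list, beside -0.27, 0.18 and -0.10 in HCC1937-EV, and these medians were not tested against each other. They are from the fit without offsets, and the part of the trend on GC content in their differences was not tested.

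**Figure D5:**
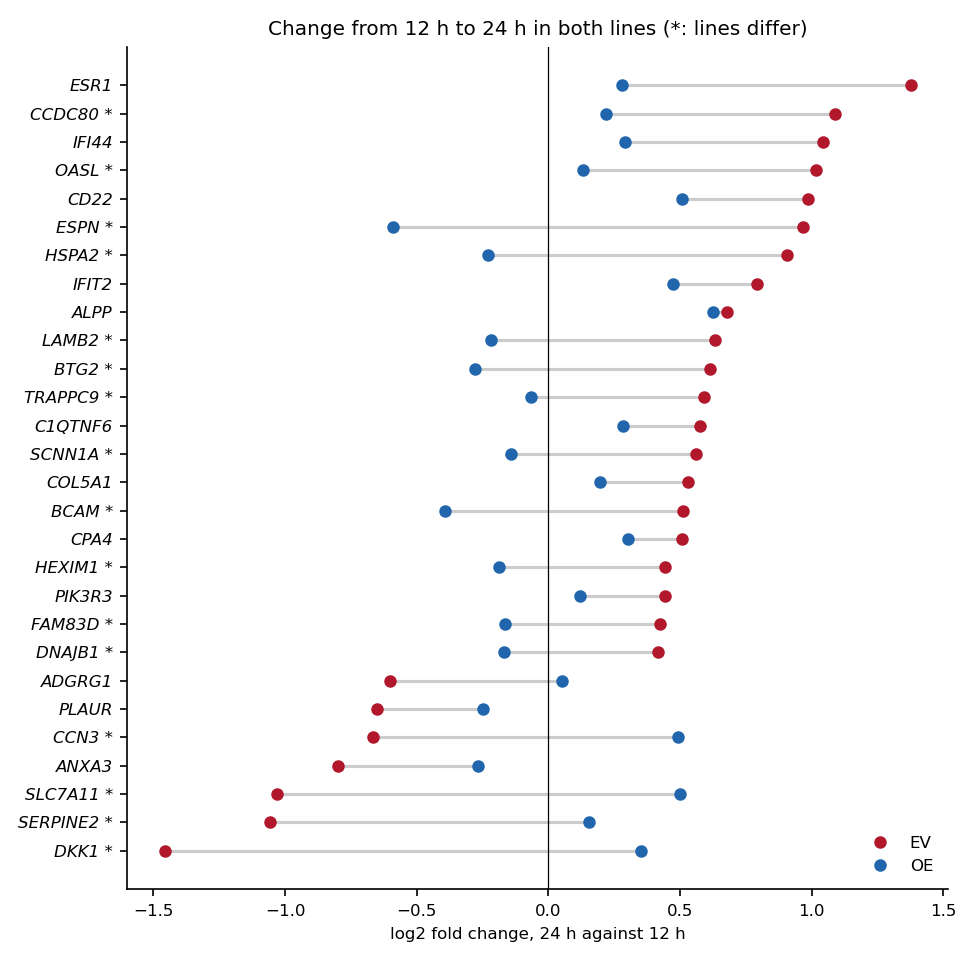
Log2 fold change at 24 h against 12 h (horizontal axis) of 28 called genes with a mean of at least 1 CPM in HCC1937-OE-BRCA1, with HCC1937-EV in red, HCC1937-OE-BRCA1 in blue and an asterisk where the interaction was called. ALPP has nearly the same change in both cell lines, and SLC7A11, DKK1 and CCN3 lie on opposite sides of 0.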

How the data were processed

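RNA was sequenced from HCC1937-EV and HCC1937-OE-BRCA1 cells in 18 libraries, and the authors deposited raw read counts per gene, without normalization. The submitters' processing notes name HISAT2, featureCounts, DESeq2 and GRCh38 (hg38). Versions and the use of strand are not given in the sources used here, so reads of a gene and an antisense partner cannot be told apart. Libraries were grouped by cell line and time in their titles. In HCC1937-EV at 12 h and 24 h, no replicate pair agreed within sampling noise (chi-square per degree of freedom 6.45 to 37.7). Gene types and positions were taken from GENCODE release 29.

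Counts were tested with edgeR 4.0.16 in R 4.3.3 (TMM, filterByExpr by group, 18335 of 35044 genes kept, quasi-likelihood test, Benjamini-Hochberg adjusted p under 0.05), with one mean per cell line and time over all 18 libraries. Lists were described by counts and medians. The members, the gene lists and the tests were chosen with earlier results of these data known. Named genes were the 10 largest rises and falls with at least 5 CPM, called and most abundant list members, the study's genes and those with the smallest p between the cell lines, and others are marked. Alternatives were DESeq2 1.42.0, other filters, offsets, blocks, subsets and fits without a library. The offsets used splines with 5 degrees of freedom over genes above a mean log2 CPM of 2. The test was checked on simulated counts with one spread for all genes and no trend on GC content. It recovered 22 of 66 changes of 0.5 on the log2 scale and 67 of 67 each of 1 and of 1.5. Of its 169 calls, 13 were false. Some genes are not reported here.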

Additional observations from a re-analysis of the deposited data

Results flagged for a closer look

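For 17 of the 33 genes called at 24 h against 12 h in HCC1937-EV, the change between the times differed from that in HCC1937-OE-BRCA1 by edgeR's test of the interaction (Benjamini-Hochberg adjusted p over all genes). The difference, as the log2 change in HCC1937-EV minus that in HCC1937-OE-BRCA1, was positive for 13, among them ESPN (1.56, adjusted p = 0.0033), BTG2 (0.89, adjusted p = 0.00372), BCAM (0.90, adjusted p = 0.00509), OASL (0.89, adjusted p = 0.007), SCNN1A (0.70, adjusted p = 0.00935), FAM83D (0.59, adjusted p = 0.0142), DNAJB1 (0.59, adjusted p = 0.0174), TRAPPC9 (0.66, adjusted p = 0.0183), HEXIM1 (0.63, adjusted p = 0.0206), HSPA2 (1.14, adjusted p = 0.0211), CCDC80 (0.87, adjusted p = 0.0228), LAMB2 (0.85, adjusted p = 0.0259). It was negative for 4, namely SERPINE2 (-1.21, adjusted p = 0.0033), SLC7A11 (-1.53, adjusted p = 0.0033), DKK1 (-1.81, adjusted p = 0.00437), CCN3 (-1.16, adjusted p = 0.00475). The 33 genes were chosen for their change in the same HCC1937-EV libraries, so the count of 17 is not independent of that choice. The cell lines also differ in many other genes, and which of their differences goes with these changes was not tested.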

How the results depend on the processing

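The 33 calls in HCC1937-EV were 35 with DESeq2's size factors, 36 with at least 10 counts in every library, 29 with an absolute log2 fold change over 0.5 and 22 with a replicate block. The count moved to 156 with DESeq2's Wald test, 139 with no filter on low counts, 276 with offsets for GC content and length, 224 with the replicate block and these offsets, 6 in the 6 libraries alone, 14 in the 9 EV libraries alone and 10 with a log2 fold change over 1. Without one library it lay between 14 (without 24 h replicate 2 or 3) and 115 (without 12 h replicate 3), with 21, 16 and 20 without 12 h replicate 1, 12 h replicate 2 and 24 h replicate 1. With offsets and without 12 h replicate 3 or 1, alternatives chosen after seeing the data, it was 323 and 175. The cause of these moves was not tested. With offsets, 0 of the 33 genes lost the call without 12 h replicate 3 and 1 lost it without 12 h replicate 1. The next counts leave out these fits with offsets and without a library. Of the 33 genes, 6 were called in every other fit in which they could be tested (LGSN, CCDC80, OASL, HPD, MMP12 and SERPINE2). None of the 33 changed direction in any of those other fits.

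The 175 calls between the cell lines were 179 with DESeq2's size factors, 249 with at least 10 counts and 175 with a log2 fold change over 0.5. They moved to 697 with DESeq2's Wald test, 1002 with no filter, 114 with the replicate block, 554 with offsets, 483 with both, 302 in the 12 treated libraries alone and 63 with a log2 fold change over 1, and lay between 38 and 2014 without one library. Deviations of the same replicate number at 12 h and 24 h correlated at 0.18, -0.19 and -0.31, and those of unlike numbers at -0.32 to 0.40. Whether replicate numbers pair the samples cannot be told from this, since the libraries also differ in the trend on GC content. Genes under about 1 CPM rest on few counts in a library.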

Other observations

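Of 34 lysosome and autophagy genes none was called, 5 lay above (14.7%, beside 5.69% of all genes) and 0 below in all libraries of 24 h, and the median log2 fold change was 0.08, or 0.05 without 12 h replicate 2. CTSZ, a lysosomal protease and abundant member, had 0.34 (SE 0.14) and PSAP, the precursor of the saposins, 0.35 (SE 0.10), with adjusted p-values of 0.495 and 0.207, and of 0.0389 and 0.0041 with offsets for GC content and length. Of 39 genes of matrix, epithelial-mesenchymal transition and TGF-beta targets, COL5A1 was called higher and PLAUR lower, and the median was 0, or -0.08 without 12 h replicate 1 and -0.10 without 24 h replicate 3. Of 25 NF-kB targets and inflammatory cytokines none was called, with NFKB2 at 0.16 (SE 0.12) and a median of 0.04, or 0.01 without 24 h replicate 2. The 34 histone genes tested had a median of -0.24 at low levels, or -0.03 without 12 h replicate 3, with H2BC12 at 0.06 (SE 0.14), and reads may be shared between these similar genes. Of 26 host genes of small nucleolar RNAs, 3 lay above (11.5%, beside 5.69% of all genes) and 0 below, and none was called. Their median was 0.07, between 0.03 without 12 h replicate 1 and 0.25 without 12 h replicate 3. The medians of the 31 proteasome genes, 36 genes of glycolysis and hypoxia, 16 MHC class I genes and 31 cell death genes were -0.03, -0.07, -0.04 and 0.03, with no call. Without 12 h replicate 3 the medians of the proteasome, glycolysis and hypoxia, and MHC class I genes turned to 0.05, 0.06 and 0.05.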
